A study of Homo sapiens with 12 samples.

Results

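In SUPT-1 cells that overexpress the STAT5B mutant N642H, ChIP-seq for STAT5B gave 4542 regions in the absence of drug, and 1099 of them lay away from the ends of genes and in neither of the lists they were set against, STAT5B of the wild-type line and NR3C1. These 1099 regions, called the N642H-only end-distant regions here, were selected on measured values. The name refers to the ends of gene spans and not to every annotated start. A region was taken when it overlapped no STAT5B region of untreated cells that overexpress wild-type STAT5B (WT line) and no NR3C1 region of prednisolone-treated N642H cells, and when its summit lay more than 1 kb from both ends of every protein-coding gene span. The first step left 3190 of the 4542 regions without a WT-line STAT5B region. Of these, 438 lay at NR3C1 regions and 2752 did not, and the 2752 were made up of the 1099 end-distant regions and 1653 regions at gene ends.

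SUPT-1 is a widely used cell line from a human T-cell acute lymphoblastic leukaemia. All cells carried a doxycycline-inducible STAT5B construct, N642H or WT, were selected with puromycin and were induced with doxycycline; whether a line was a clone was not given in the sources used here. Chromatin was precipitated for STAT5B or for the glucocorticoid receptor NR3C1 from cells of each line that were given prednisolone, a synthetic glucocorticoid, at 250 µg/ml for 16 hours, or were left untreated. The groups used were STAT5B in N642H cells with prednisolone and untreated, NR3C1 in N642H cells with prednisolone, STAT5B in WT cells with prednisolone and untreated, and NR3C1 in WT cells with prednisolone. Each group was 1 library, so no difference between libraries has a replicate check, no p-value is given, and intervals are exact Clopper-Pearson 95% intervals that cover counting error over regions only.

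STAT5B is a transcription factor that JAK kinases activate downstream of cytokine receptors such as the IL-7 receptor, on which developing T cells and many T-cell leukaemias depend. The activated dimer binds palindromic sites of the form TTCNNNGAA and is known to raise genes for survival, cell-cycle entry and feedback inhibition, among them BCL2L1, PIM1, CISH and the SOCS genes. N642H changes the SH2 domain through which STAT5B molecules pair, and it is a recurrent activating mutation in lymphoid leukaemia and lymphoma. Many STAT5 sites in lymphocytes lie in introns or between genes rather than at promoters.

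The sequence under a summit could be read for 108 of the 1099 N642H-only end-distant regions, those whose 101-base window (50 bases to either side of the summit) lay wholly inside a RefSeq promoter of GRCh38.p14. These 108 lie near annotated starts by construction, and the sequence of the other end-distant regions was not analysed here. A match to the STAT5 motif TTCNNNGAA, searched on both strands, was found in 6 of the 108 windows, and those 6 are printed here because they hold the site that STAT5B is known to bind; their genes are named for that reason, after the search. They are given 5′ to 3′ on the plus strand of hg38, and capitals mark the motif.
ANXA2R start, chr5:43040348-43040448: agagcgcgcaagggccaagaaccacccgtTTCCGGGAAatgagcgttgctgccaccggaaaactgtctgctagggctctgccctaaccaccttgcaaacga
LINC01825 start, chr2:195532733-195532833: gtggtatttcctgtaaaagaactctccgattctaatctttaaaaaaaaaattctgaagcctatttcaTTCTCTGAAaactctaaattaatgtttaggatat
TMCO6 start, chr5:140639213-140639313: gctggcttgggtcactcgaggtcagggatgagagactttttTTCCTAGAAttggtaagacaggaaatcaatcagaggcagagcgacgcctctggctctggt
LOC107984948 start, within SLC6A9, chr1:44030185-44030285: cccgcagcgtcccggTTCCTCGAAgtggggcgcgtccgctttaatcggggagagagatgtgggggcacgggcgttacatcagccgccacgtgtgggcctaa
LOC105376478 start, 67782 bp from MAP3K8, chr10:30529565-30529665: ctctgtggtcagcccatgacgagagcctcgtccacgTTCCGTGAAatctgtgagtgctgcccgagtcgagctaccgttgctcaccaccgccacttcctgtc
ZNF227 start, chr19:44212409-44212509: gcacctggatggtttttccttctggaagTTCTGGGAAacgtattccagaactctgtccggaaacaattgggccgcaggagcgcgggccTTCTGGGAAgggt

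The centre of the motif lay 17 bases below the summit coordinate in the ANXA2R window, 5 bases below it at TMCO6, 10 bases below it at LOC105376478, and 31 bases below it at LOC107984948. At LINC01825 it lay 21 bases above the summit. The ZNF227 window held 2 matches, of which the nearer was centred 18 bases below the summit. The fold over background of these 6 regions ran from 6.99 at ANXA2R to 5.05 at ZNF227, so the windows with the motif included none of the strongest end-distant regions. The motif can share bases with the ETS-family core CCGGAA, and did so in 1 window, that of ANXA2R.

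A pair of windows without the motif are printed because they belong to end-distant regions that were called again in another library: the one at PIK3R3, the strongest of the 108, and the one at NREP, the only end-distant region called in both STAT5B libraries with prednisolone.
PIK3R3 start, chr1:46132746-46132846: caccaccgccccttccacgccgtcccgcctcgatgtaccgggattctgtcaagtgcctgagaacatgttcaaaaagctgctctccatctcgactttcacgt
NREP start, chr5:111757344-111757444: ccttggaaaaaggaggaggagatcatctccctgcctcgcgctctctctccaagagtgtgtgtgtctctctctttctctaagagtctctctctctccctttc

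The share of windows with TTCNNNGAA was 5.56% (6 of 108, interval 2.07 to 11.7%) for the end-distant regions, against 3.38% (22 of 650, 2.13 to 5.08%) for N642H-only regions at gene ends. It was 21.4% (3 of 14, 4.66 to 50.8%) for N642H-only regions at NR3C1 away from gene ends. Of shared regions away from gene ends, 0 of 50 windows held it (exact interval 0 to 7.11%), while 3 counts of 50 would be 6%. Of 35114 RefSeq promoters, 2.54% held the motif in a window of the same length at the middle of the promoter. A promoter here runs from 250 bases before the start to 50 after it, so these windows are not placed as the summit windows are. The interval of the end-distant regions held both the gene-end share and the share over all promoters, so a difference was not detectable with 108 windows. With 100 bases to either side the order of these shares was reversed. The motif then stood in 3.70% of end-distant windows (2 of 54, 0.452 to 12.7%), 5.04% of gene-end windows (20 of 397) and 5.11% of promoters. CCGGAA was found in 19.4% of the end-distant windows (21 of 108), in 20.8% of gene-end windows and in 6.24% of all promoters. Regions shared with the WT line held it too, in 18% of windows away from gene ends (9 of 50) and 29.6% at gene ends (130 of 439). The end-distant windows had a median GC content of 68.3% and all promoters one of 59.4%, and the part of base composition in the CCGGAA shares was not tested. GGGCGG, the core bound by SP-family factors, stood in 35.2% of end-distant windows and 26.7% of all promoters, and the RUNX core TGTGGT in 5.56% and 4.52%. In shared windows away from gene ends GGGCGG stood in 40% and TGTGGT in 2%.

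The N642H-only end-distant regions were weak to moderate in strength. The deposited fold over local background ran from 3.08 to 14.8 with a median of 5.93, and the −log10 q from 2.12 to 32.0 with a median of 5.91. The number of fragments piled up at the summit, solved from the deposited fold and −log10 p, ran from 8 to 37 with a median of 14, over a local background of 0.977 to 6.42 fragments. N642H-only regions at gene ends had the same median pileup, 14, and a median fold of 5.83. Regions away from gene ends that were shared with the WT line had a median pileup of 20 and a median fold of 7.06, and those at NR3C1 had a median pileup of 19 and a median fold of 6.70. These values belong to the list that chose the members and are given as a description.

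**Figure D1:**
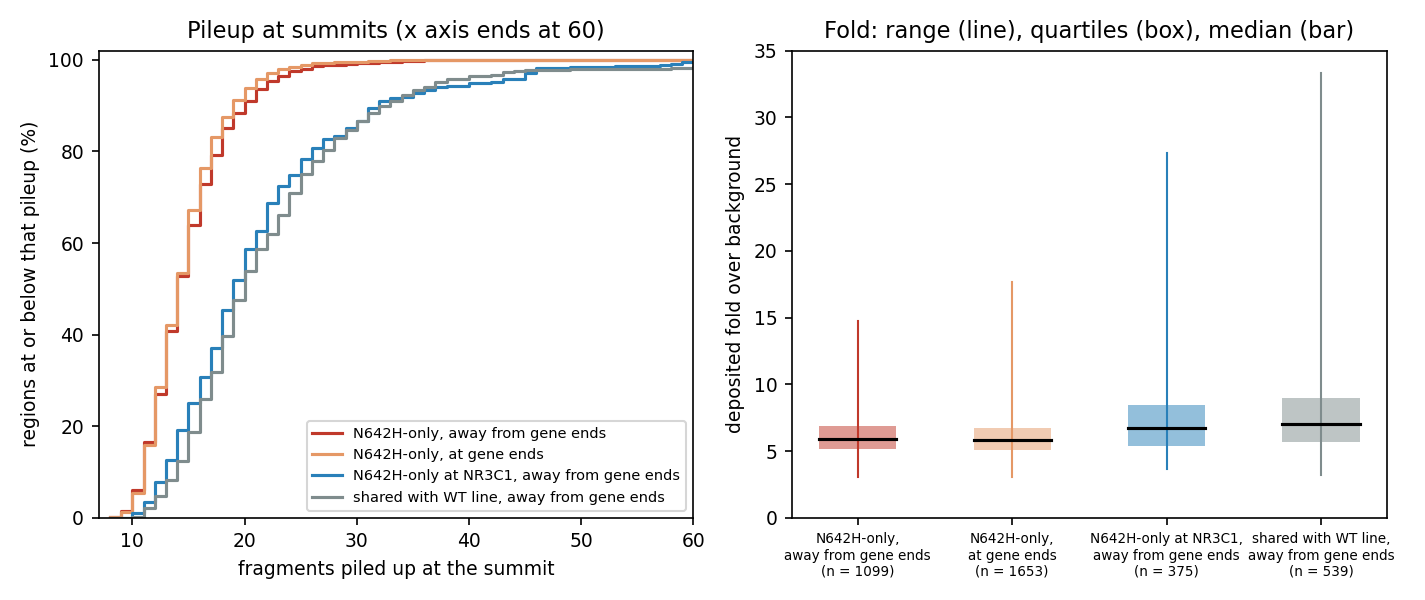
Strength of 4 classes of untreated N642H-line STAT5B regions. The left panel shows the share of regions (%) at or below each pileup (fragments at the summit), and the right panel the deposited fold as range, quartiles and median; the N642H-only end-distant and gene-end curves lie together with medians of 14 fragments, left of the NR3C1 and shared classes at 19 and 20.

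No end-distant region was among the 10 strongest of the 4542 regions by −log10 q, and 3 were among the strongest 100 and 44 among the strongest 500. A fold of at least 5 was reached by 865 of the 1099, a fold of at least 8 by 104 and a fold of at least 10 by 27. A pileup of at least 20 fragments was reached by 11.6% of end-distant regions (127), against 52.5% of regions shared with the WT line away from gene ends. The end-distant regions were narrow, with a median width of 206 bp in a list whose narrowest region was 156 bp, while shared regions away from gene ends had a median of 288 bp.

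Absence from the untreated WT-line list means that no region was called there. The N642H library gave 4542 regions, the WT library 2267. The lowest local background was 0.977 fragments in the N642H library, against 0.640 in the WT library, and the narrowest called region was 156 bp against 77 bp. Read depth and fragment size were not measured here, and any difference in them between these libraries cannot be told apart from the form of STAT5B. When the N642H list was shortened to its 2267 strongest regions, a check chosen after the data were seen, 428 end-distant regions remained. Over all 4542 regions, 29.8% overlapped an untreated WT-line STAT5B region and 17.7% an NR3C1 region of prednisolone-treated N642H cells; the rule removed both kinds, so the end-distant regions overlap none. At the distance limit, with genes named after their values were seen, JADE2, EHD1 and ANP32B had N642H-only summits 993, 994 and 997 bp from a gene end with folds of 4.94, 6.41 and 6.71, and were left out, while summits at SUFU and CD248, 1010 and 1014 bp away with folds of 5.25 and 5.76, were kept. Of the 1099, 45 lay within 500 bp of an untreated WT-line STAT5B region and 22 within 500 bp of an NR3C1 region, and the median gaps were 176564 and 156829 bp.

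The strongest end-distant region lay between genes on chromosome 3 (hg38, chr3:143209303-143209633), 55764 bp from SLC9A9, which encodes an endosomal sodium/proton exchanger. It had 37 fragments at the summit over a background of 1.57, a fold of 14.8, and ranked 43 of the 4542 regions. The next lay inside NDRG3 (chr20:36658381-36658686), with 35 fragments and a fold of 12.0. Within EHBP1, which links endocytic cargo to the actin skeleton, a region with 36 fragments and a fold of 11.2 lay 775 bp from one of the annotated EHBP1 starts (chr2:62705400-62705676). The region with the second highest fold among the 15 strongest, 13.9, lay where the spans of HECA and TXLNB overlap (chr6:139161164-139161515), and was called again in WT cells with prednisolone.

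**Figure D2:**
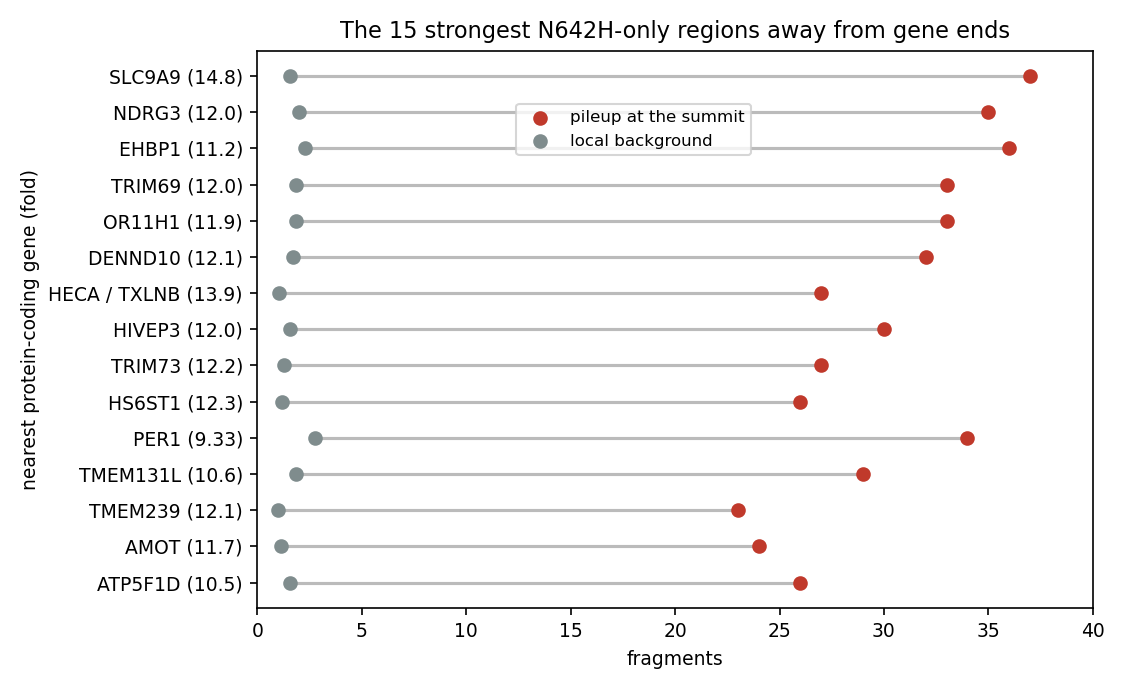
The 15 strongest N642H-only end-distant regions in order of −log10 q, named by the nearest protein-coding gene with the deposited fold in brackets. Points give the fragments at the summit and the local background (x axis, fragments); summits hold between 23 (TMEM239) and 37 (SLC9A9) fragments and backgrounds lie between 0.977 and 2.75.

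The rest of the 15 strongest were spread over gene bodies and the space between genes. Summits lay inside DENND10, HIVEP3 (a zinc-finger transcription factor) and TMEM131L, with folds of 12.1, 12.0 and 10.6. Others lay between 1 and 10 kb beyond the nearest gene: at ATP5F1D, a subunit of mitochondrial ATP synthase, 1177 bp away with a fold of 10.5; at PER1, 1646 bp away with 9.33; at TMEM239, 2017 bp away with 12.1; at HS6ST1, a heparan sulfate sulfotransferase, 3134 bp away with 12.3; at TRIM73, 4592 bp away with 12.2; and at TRIM69, 7711 bp away with 12.0. A pair were remote from any protein-coding gene, 434179 bp from AMOT on the X chromosome (fold 11.7) and 3113576 bp from the olfactory receptor gene OR11H1 on chromosome 22 (fold 11.9). No filter for repeated or poorly mappable sequence was applied here, to these or to any other regions. PER1 had the highest local background of the 15, 2.75 fragments, and its summit lay 55 bp from a tRNA gene, TRS-CGA1-1.

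Few of the end-distant regions were called in the libraries that the rule did not use. With prednisolone, the N642H line itself had a STAT5B region at 10 of the 1099 (0.910%, 0.437 to 1.67%), while 6.87% of all 4542 regions were called again there. N642H-only regions at gene ends were called again at 2.12% (35 of 1653), regions at NR3C1 away from gene ends at 12% (45 of 375) and shared regions away from gene ends at 14.3% (77 of 539). The list for N642H cells with prednisolone was short, at 446 regions, against 4542 for the untreated N642H cells. Of the 428 end-distant regions among the 2267 strongest, 1.87% were called again, rather than 0.910%. The share over all 2267 is not given here, and the 6.87% belongs to the full list.

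STAT5B of prednisolone-treated WT cells had a region at 29 end-distant regions (2.64%, 1.77 to 3.77%), with 12.4% over all 4542 regions, 5.08% for N642H-only regions at gene ends and 30.1% for shared regions away from gene ends. NR3C1 of prednisolone-treated WT cells had one at 6 end-distant regions (0.546%, 0.201 to 1.18%), with 5.15% over all regions, 0.121% at gene ends and 19.7% for shared regions away from gene ends. In each of the 3 lists the share of end-distant regions lay below the share over all regions, and the interval did not reach it. The rule had already removed the regions called in the untreated WT line and those at NR3C1 in the N642H line, and the part of that removal in these low shares was not tested.

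**Figure D3:**
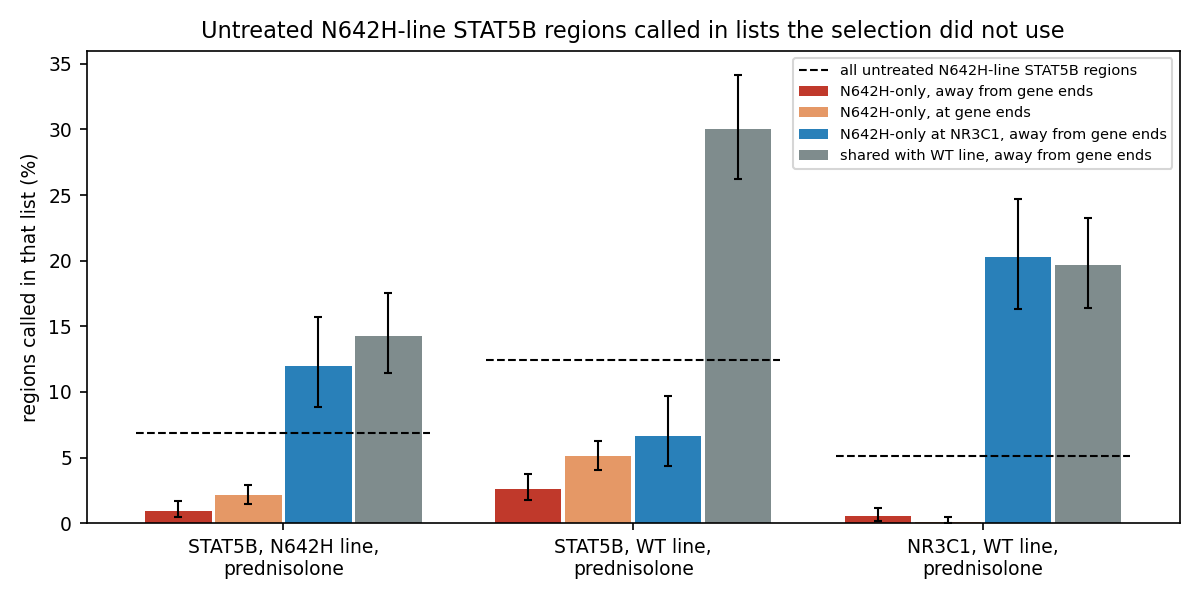
Share (%) of 4 classes of untreated N642H-line STAT5B regions that overlapped a region of each list not used in the selection, with exact 95% intervals over regions; the dashed line is the share over all 4542 regions. The N642H-only end-distant regions sit at 0.910%, 2.64% and 0.546%, below the dashed lines at 6.87%, 12.4% and 5.15%.

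Pileup moved with these shares. Of end-distant regions with 8 to 12 fragments, 0 of 296 were called again in N642H cells with prednisolone (exact interval 0 to 1.24%), while 3 counts of 296 would be 1.01%. The number called again was 3 of 504 (0.595%) with 13 to 16 fragments and 7 of 299 (2.34%, 0.946 to 4.76%) with 17 to 37. At 17 to 37 fragments, N642H-only regions at gene ends were called again at 5.64% (3.57 to 8.42%) and shared regions away from gene ends at 15.3% (11.8 to 19.3%). In that band the interval of the end-distant regions did not overlap that of the shared regions and did overlap that of the gene-end regions. For STAT5B of WT cells with prednisolone, the same band gave 13 of 299 end-distant regions (4.35%, 2.34 to 7.32%) and 43 of 390 gene-end regions (exact interval 8.10 to 14.6%). It gave 33.5% (28.7 to 38.6%) of shared regions. The first interval overlapped neither of the others. Shared regions were chosen by a call in the untreated WT line and the others by the lack of one. A gap between them in a WT-line list therefore cannot be told apart from the rule. The band did not match the classes for pileup. Its lowest value, 17 fragments, was held by 70 of 299 end-distant, 114 of 390 gene-end and 32 of 373 shared regions. The part of pileup, and of the selection by the untreated WT list, in these differences was not tested.

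The 5 strongest end-distant regions that N642H cells with prednisolone also had were near PER1, near AMOT, and inside ENTREP3, AP4E1 and NREP. The fold was 6.18 with prednisolone and 9.33 untreated near PER1, a circadian repressor that glucocorticoids are known to induce. It was 5.05 with prednisolone and 11.7 untreated near AMOT. ENTREP3 had a fold of 8.63 with prednisolone and 10.1 untreated, AP4E1, a subunit of an adaptor complex for vesicle traffic, 4.89 and 7.95, and NREP 8.16 and 8.02. The other 5, named after their values were seen, lay inside ARPC5L, TUBGCP3 and DYNC2I2, near PCMTD2, and on chromosome Y, 159906 bp from the nearest annotated start, where the fold was 16.0 with prednisolone and 8.60 untreated. Folds are relative to the background of their own library, so a pair of folds from different lists is not a measured change.

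Of the 29 end-distant regions called in WT cells with prednisolone, those described here were picked after their values were seen. The region at the start of PIK3R3, a regulatory subunit of PI3-kinase, whose window is printed above, had a fold of 10.4 in untreated N642H cells and 8.63 in WT cells with prednisolone. A region 3203 bp from IKZF3, which encodes the lymphoid zinc-finger factor Aiolos, had 9.32 and 7.14, and one inside IKZF1, which encodes Ikaros, 6.04 and 6.02. NREP was the only end-distant region in both STAT5B lists with prednisolone, with 5.59 in the WT list. Regions near LARS2 and IDH2 and on chromosome 21 were among those called by both STAT5B and NR3C1 in WT cells with prednisolone. In all, 40 end-distant regions were called in at least 1 of the 3 lists, 1059 in none, and 18 of the 40 lay within 1 kb of an annotated start.

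The end-distant regions were split between the inside and the outside of protein-coding gene spans. The summit lay inside a span in 588 of 1099 (53.5%, 50.5 to 56.5%), compared with 53.1% (47.9 to 58.2%) of regions at NR3C1 and 47.7% (43.4 to 52.0%) of shared regions away from gene ends. The gene table used here gave spans only, so exons, introns and UTRs were not told apart. Outside spans, the 511 summits had a median distance of 24068 bp to the nearest protein-coding gene. The median distance to a gene end was 17174 bp; 502 summits (45.7%) lay over 20 kb from one and 169 (15.4%) over 100 kb. Among regions at NR3C1 away from gene ends, 58.7% lay over 20 kb and 25.3% over 100 kb from a gene end.

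Distance from the ends of gene spans did not mean distance from every promoter. A gene with several starts has only its outermost ones at the ends of its span, and non-coding genes were not part of the rule. Of the 1074 end-distant regions outside chromosome 8, for which the promoter table had no entries, 282 (26.3%, 23.6 to 29.0%) had an annotated start within 1 kb of the summit, and 142 within 150 bp. The start belonged to a protein-coding gene in 185 and to a lncRNA in 97, and 214 of the 282 lay inside a protein-coding span. A further 26 lay within 1 kb of a tRNA gene and 86 within 1 kb of the end of another non-coding gene or pseudogene, which left 680 (63.3%) with none of these. The share at a start was 13.0% (9.70 to 16.9%) for regions at NR3C1 and 20.3% (16.9 to 24.0%) for shared regions away from gene ends, and the interval of the end-distant regions overlapped that of the shared regions by a small margin.

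**Figure D4:**
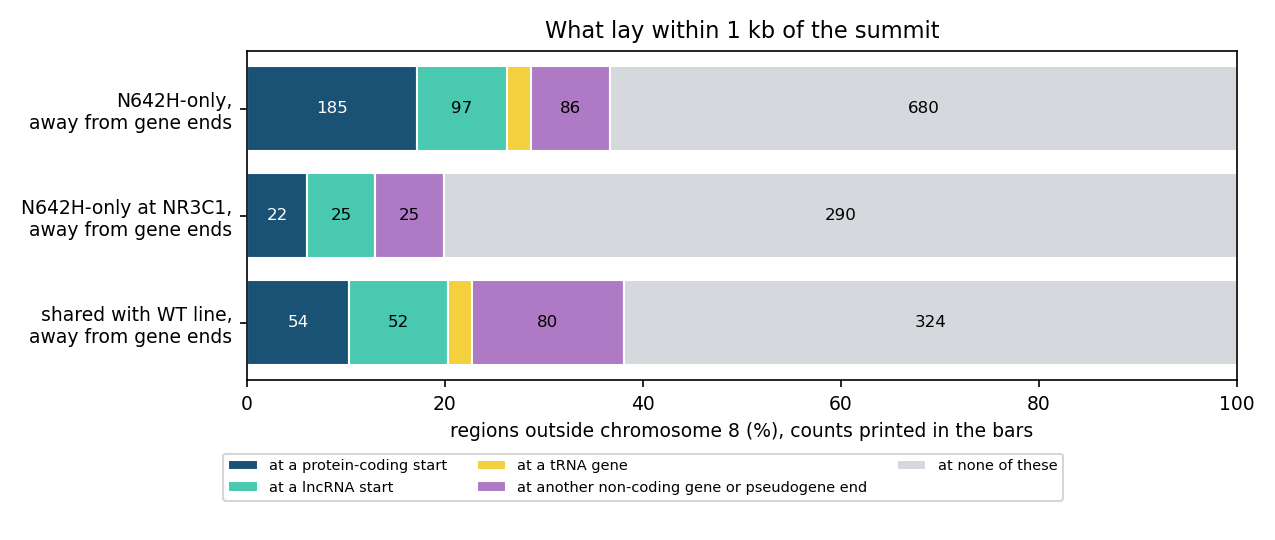
What was annotated within 1 kb of the summit in 3 classes of untreated N642H-line STAT5B regions away from gene ends, as a share of regions outside chromosome 8 (x axis, %), with counts in the bars. The N642H-only end-distant regions have 185 at a protein-coding start and 97 at a lncRNA start of 1074.

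The median fold was 5.92 at protein-coding starts, 5.72 at lncRNA starts and 5.94 where no start or non-coding gene end lay within 1 kb, with a median pileup of 14 in each. It was 5.18 at tRNA genes and 6.14 at other non-coding ends, with a median pileup of 15 in both. The strongest regions at protein-coding starts, named after their values were seen, were those at EHBP1, PIK3R3, JADE2 (fold 11.4, 22 bp from the start), the phosphodiesterase gene PDE4A (10.4) and FAM111A (9.32). At lncRNA starts they were LOC124901676 near TRIM73 (12.2), LOC105373496 near ARID5A (8.82) and LOC105377347 near NFKB1 (7.73), and MIR155HG, the host transcript of the lymphocyte microRNA miR-155, had a fold of 7.25 at 97 bp from its start. All tRNA genes counted, whatever else lay nearby, 29 end-distant regions (2.64%, 1.77 to 3.77%) lay within 1 kb of one, as did 2.78% of shared regions away from gene ends. Of regions at NR3C1 away from gene ends, 0 of 375 did (exact interval 0 to 0.979%), while 3 counts of 375 would be 0.8%. Genes for small nuclear RNAs lay within 1 kb of 2 end-distant regions (0.182%), compared with 5.75% (31 of 539, 3.94 to 8.06%) of shared regions away from gene ends.

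Mature microRNA genes near the end-distant regions are printed with their sequences because several of the regions sit at 2 well-known polycistrons. A hairpin lay within 2000 bp of 16 end-distant regions, 20 hairpins in all. The strongest of the 16 (chr19:13836905-13837166, fold 9.20, 24 fragments) lay 377 bp from MIR23A, which is followed on the same strand by MIR27A and MIR24-2. Around the start of MIR17HG, host of the miR-17-92 cluster, lay 3 regions, with folds of 4.48, 4.90 and 7.43; the last (chr13:91349046-91349452) was 1435 bp from MIR17 and 1895 bp from MIR20A. The mature sequences are from RefSeq (GRCh38.p14), 5′ to 3′, with the seed, bases 2 to 8, in capitals; miR-17-5p and miR-20a-5p share a seed, and the other 5 each have their own.
hsa-miR-17-5p: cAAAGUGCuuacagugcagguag
hsa-miR-20a-5p: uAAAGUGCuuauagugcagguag
hsa-miR-18a-5p: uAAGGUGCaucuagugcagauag
hsa-miR-19a-3p: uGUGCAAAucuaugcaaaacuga
hsa-miR-23a-3p: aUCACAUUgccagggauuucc
hsa-miR-27a-3p: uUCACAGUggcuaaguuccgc
hsa-miR-24-3p: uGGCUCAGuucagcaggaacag

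The mature microRNAs themselves were not measured. Single hairpins near end-distant regions, named after their values were seen, included MIR210, a microRNA known for its induction by hypoxia, 519 bp from a region with a fold of 7.08, and MIR148A, 1195 bp from one with 5.60. The other hairpins lay near regions with folds of 3.23 to 7.40.

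Genes were counted as linked to a region whose summit was inside their span or no more than 20 kb from it. By that rule 1143 of 19866 protein-coding genes (5.75%) were linked to an end-distant region, 1020 of them to 1 and 123 to 2 or more, and 824 of the 1099 end-distant regions were linked to a gene. Any of the 4542 regions linked 28.9% of genes. Of 13 gene lists, 12 had a share linked to an end-distant region above 5.75%, so a share above it is not particular to any 1 list. Linked genes were longer, with a median span of 33903 bp, against 24469 bp for all protein-coding genes, and the part of gene length in the counts was not tested. The median spans of the lists ran from 6873.5 bp for STAT5 targets to 102279 bp for T-lineage transcription factors. They were 101857 bp for the PI3K-AKT list and 49281 bp for the IL-7 receptor and JAK-STAT list.

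Known STAT5 target genes were linked at 8 of 30, and 18 of the 30 were linked to any region. The list holds short genes, with a median span of 6873.5 bp. CCND2, encoding cyclin D2, which drives entry into the cell cycle, had a region 4333 bp beyond its span with a fold of 8.39 and 17 fragments. SPRED2, an inhibitor of RAS-MAP kinase signalling, had 2, the stronger with a fold of 7.06 at 3257 bp. CISH, a feedback inhibitor of cytokine signalling, had 1 at 5169 bp with a fold of 7.08, 208 bp from an annotated start of MAPKAPK3. CCND3, encoding cyclin D3, had 1 inside its span with a fold of 5.92. ID1, an inhibitor of helix-loop-helix factors, had 4, with folds of 4.89 to 6.00. The other linked genes were BCL2L1, CDKN1A and MYC, with folds of 5.29, 5.03 and 4.12.

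The best-known STAT5 genes had their strongest regions outside the end-distant set. PIM1 and PIM2, which encode survival kinases, had their strongest linked regions at NR3C1, with folds of 25.8 and 27.3, and their nearest end-distant regions lay 257782 and 1285687 bp away. CISH had a region with a fold of 12.7 at NR3C1 besides its end-distant one. BCL2L1, which encodes the survival protein BCL-XL, was linked to 7 regions; 2 were end-distant, with folds of 5.29 and 3.73, and the strongest lay at NR3C1 with 17.1. BCL6, a transcriptional repressor, had a shared region with a fold of 18.7 at a gene end, and its nearest end-distant region, with 10.3, lay 145120 bp away. SOCS2, a feedback inhibitor, had 1 region, at its gene end (9.61). IL7R, the receptor chain for IL-7, had 1 at a gene end and 1 at NR3C1. SOCS1, BCL2 and IL2RA had no linked region of any kind, and the end-distant region nearest to IL2RA was 139288 bp away. At MYC, the end-distant region lay 1228 bp from the gene with 22 fragments and a fold of 4.12, and a region shared with the WT line at the gene end had 6.99.

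Among the IL-7 receptor and JAK-STAT genes, 4 of 25 were linked, and 2 at −log10 q of at least 5. JAK1, the kinase that signals from the IL-7 receptor, had a region inside its span 427 bp from an annotated JAK1 start, with a fold of 5.89. PTPRC, which encodes the phosphatase CD45, had 2, the stronger with a fold of 5.54. STAT6 and CRLF2, a cytokine receptor chain, had 1 each, with 9 fragments and a −log10 q of 3.38. The STAT6 region lay 16747 bp from STAT6 and 130 bp from an annotated start of NEMP1, and the CRLF2 region lay inside CRLF2. In the BCL2 family, 5 of 20 were linked. BBC3, which encodes the pro-death protein PUMA, had 2 regions inside its span with folds of 7.40 and 5.64. BAK1, a pore-forming death effector, had 1 with 6.64 at 1247 bp, and BCL2L2 had 1 with 6.22 at 5255 bp. The BCL2L2 region lay nearer, at 1281 bp, to an end of another protein-coding gene. BCL2L12 had 1 with 6.40 at 3405 bp, which lay 50 bp from a start of PRMT1. BCL2L1 is given above.

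Cell-cycle regulators were linked at 7 of 22, with a median span of 11615.5 bp for the list. E2F3, an activator of S-phase genes, had a region 411 bp from one of its annotated starts with a fold of 8.30 and 18 fragments. CDK6, the kinase partner of D cyclins, had 1 at 42 bp from an annotated start (5.02), and TOB1, an inhibitor of T-cell proliferation, 1 at 7 bp (6.15). CDKN2C, an inhibitor of CDK4 and CDK6, had 1 with 5.40; CCND2, CCND3 and CDKN1A belong to this list too. In the NOTCH and MYC list, 6 of 24 were linked. RBPJ, the DNA-binding partner of NOTCH, had a fold of 7.49, and the MYC antagonists MXI1 and MXD1 had 6.99 and 6.70. HES5, a NOTCH target, had 6.38, at a region 13492 bp from HES5 and 10479 bp from TNFRSF14. NOTCH1, the receptor often mutated in T-cell leukaemia, had 4.78, and MYC is given above.

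**Figure D5:**
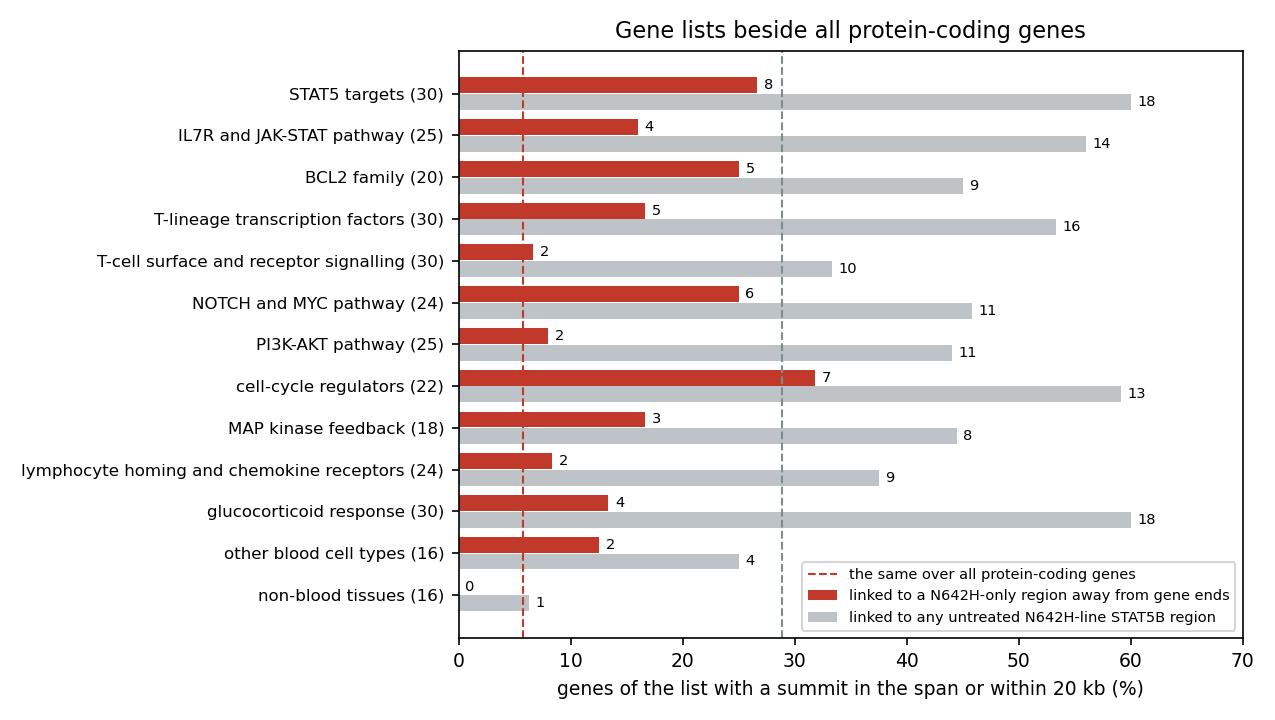
Share (%) of the genes of 13 lists with a summit inside the span or no more than 20 kb from it, for the N642H-only end-distant regions and for all untreated N642H-line STAT5B regions, with gene counts printed; dashed lines give both shares over all protein-coding genes. For 12 of the 13 lists the share linked to an end-distant region stands above the 5.75% line, from 2 of 30 T-cell surface genes to 7 of 22 cell-cycle regulators; the non-blood list has 0 of 16, which allows up to 18.8% by 3 counts.

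T-lineage transcription factors were linked at 5 of 30. IKZF3 had 3 end-distant regions, with folds of 6.62, 9.32 and 7.07, in a row of summits 1879 bp long. RUNX1 had 2 inside its span, the stronger with a fold of 8.10 and 21 fragments and the other, with 6.99, 255 bp from an annotated start. IKZF1 had 2, with 6.04 and 5.40. IKZF2, which encodes Helios, had 1 with 5.78, and SATB1, a chromatin organiser of thymocytes, 1 with 4.59 at 299 bp from an annotated start. Of T-cell surface and receptor signalling genes, 2 of 30 were linked, close to the background: CD247, the zeta chain of the T-cell receptor complex, with 7.82, and CD7 with 5.93 at 12779 bp.

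Glucocorticoid response genes were linked at 4 of 30: PER1 with 9.33, the kinase gene SGK1 with 6.96, KLF13 with 6.60 at 18331 bp and ZFP36L2, an RNA-decay factor, with 5.48. In the PI3K-AKT list 2 of 25 (8%) were linked, close to the background: RPTOR, the scaffold of an mTOR complex, with 10.1, and PIK3CD, the lymphocyte PI3-kinase subunit, with 7.99. MAP kinase feedback genes were linked at 3 of 18 (SPRED2, and DUSP6 with 4.81 and SPRY2 with 4.00) and 1 at −log10 q of at least 5, and homing and chemokine receptor genes at 2 of 24 (8.33%), also close to it, ITGB7 with 7.49 and CCR9 with 3.40. The ITGB7 region lay 14648 bp from ITGB7 and 10310 bp from an annotated start of RARG, and the CCR9 region lay 15719 bp from CCR9. Genes of other blood cell types were linked at 2 of 16, FCGR3A with 6.99 at 10587 bp and CD14 with 5.60 at 5562 bp. The FCGR3A region lay 12 bp from a tRNA gene and the CD14 region 188 bp from a TMCO6 start. Non-blood tissue genes were linked at 0 of 16, which allows a share of up to 18.8% by 3 counts of 16 and so does not separate them from the 5.75% over all genes. No test was run on the lists, which differ in gene length and were chosen with results of these data known.

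The end-distant regions were mostly solitary. When summits within 12500 bp of each other were joined, the 1099 formed 1027 clusters, 964 of them of 1 region, 54 of 2 and 9 of 3, so 135 regions (12.3%) had a neighbour. Joined within 50 kb, 246 (22.4%) had one and the largest group held 5. The 9 groups of 3, named after their values were seen, included groups inside JADE2, around MIR17HG, and within 20 kb of IKZF3, ID1, FOSB and HJV. Another lay between CSNK1D and CD7, its first summit 14365 bp from CSNK1D and its last 12779 bp from CD7. The others were farther from any protein-coding gene, with B3GAT1 (242543 bp) and LINC02210-CRHR1 (34998 bp) as the nearest. The summit of the HJV group nearest to that gene lay 13898 bp away, beside the tRNA gene TRE-CTC1-1. The tightest, near LINC02210-CRHR1, spanned 704 bp between summits, and the strongest, at JADE2, spanned 1295 bp with folds of 5.25, 11.4 and 5.29. Across chromosomes, the share of end-distant regions was close to that of all 4542 regions for the chromosomes with most of them: 10.6% of end-distant and 11.7% of all regions lay on chromosome 1, 7.55% and 7.49% on chromosome 17, and 7.28% and 6.21% on chromosome 5. Chromosome 13 held 3.55% of end-distant and 2.49% of all regions.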

How the data were processed

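Each of the 8 ChIP libraries came as 1 list of called regions, made by the authors with BWA, MACS2 and deepTools on hg38, per the submitters' processing notes; versions and the control used are not given in the sources used here. For each region the authors deposited a fold (ratio of pileup to local background), a −log10 p and −log10 q, and a score of 10 times the −log10 q. The lists held 2 to 4542 regions on chromosomes 1 to 22, X and Y; all had −log10 q of at least 2.

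Overlap meant at least 1 bp. Pileup and background were solved from the fold and −log10 p by the MACS2 Poisson formula with a pseudocount of 1. On simulated data, planted overlaps were found in 20 of 20 runs and the pileup in 7997 of 8000 regions. Gene spans (19866 protein-coding genes on the assembled chromosomes), promoters and microRNAs came from RefSeq GRCh38.p14 tables. Motifs over all regions and in flanks 1 kb away, and the 4 input libraries, were not analysed here, and some named items are not reported here. Scripts used Python 3.11.15, pandas 2.3.3, numpy 2.4.6 and scipy 1.17.1.

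The members and gene lists were chosen with earlier results of these data known. Genes named are the nearest genes of the 15 strongest members, those of the 5 strongest called again in N642H cells with prednisolone, up to 6 linked genes per list in order of −log10 q, and 11 followed genes; any other gene was named after seeing its values, as the text marks. Alternatives were another overlap rule, stricter q and fold, other gene-end and link distances, all annotated genes, and other motif windows.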

Additional observations from a re-analysis of the deposited data

How the results depend on the processing

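Of 91 values recomputed under 12 settings, 71 stayed within their interval, or within 1.5 times for counts, and 20 moved. These are single shares, medians and counts, so none has a direction of its own to reverse. Comparisons between classes were not among them. The order of the TTCNNNGAA shares of end-distant windows, gene-end windows and promoters did reverse with 100 bases to either side, as given above. The number of end-distant regions was 1038 with gaps of up to 500 bp counted as overlap, 760 at −log10 q of at least 5, 865 at a fold of at least 5, 802 at 5 kb from gene ends and 867 with all annotated genes. The median fold moved to 6.49 at −log10 q of at least 5 and to 6.26 at a fold of at least 5, both of which remove weak regions by construction. The median width moved to 213 bp at −log10 q of at least 5 and to 199.5 bp at 5 kb from gene ends. The share inside gene spans moved to 49.5% at 5 kb and to 59.5% with all annotated genes. Linked genes numbered 1911 within 50 kb. In the N642H list shortened to the length of the WT list, chosen after the data were seen, 428 regions were end-distant, 1.87% of them were called again with prednisolone in N642H cells, the median fold was 7.08 and the median width 221.5 bp. Of 39 counts over single gene lists, 9 moved by over 1.5 times. With the single nearest gene at any distance, T-lineage factors had 9 linked genes, glucocorticoid response 7, T-cell surface 5, PI3K-AKT 4, BCL2 family 3 and other blood cell types 0. At −log10 q of at least 5, JAK-STAT had 2, MAP kinase feedback 1 and homing 1. High background was set at 10 times the lowest background of the list, 0.977 fragments. The highest background of an end-distant region was 6.42 fragments, so this setting left out no region and its value could not move. No paired analysis was possible because each group had 1 library. The weakest called summit of the N642H library held 8 fragments and that of the WT library 7, and a region missing from a list may still hold reads.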
